A study of Mus musculus with 6 samples.

Results

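The genes described here encode the integrins and the adhesion molecules that integrins and selectins work with, measured in primary lung fibroblast cultures after a Hedgehog agonist. The set was defined by name as 35 genes, of which 26 encode integrin chains and 9 encode counter-receptors, selectin partners or other adhesion receptors. For each gene the probe set whose only annotated symbol was that gene, and with the highest mean over the 6 arrays where there were several, was used. This gave 34 of the 35 genes out of 22180 genes tested, and Itga10 was not analysed here. The cells were enriched from digested lungs of wild-type male C57BL/6 mice aged 8 weeks, grown on plastic, passaged at most 3 times and divided over wells. The 3 purmorphamine wells received the agonist for 24 h at a dose the labels write as 5um, read as 5 µM, and the 3 vehicle wells received vehicle. Purmorphamine is a small molecule that switches on Smoothened and so turns on Hedgehog signalling in cells that have it. The labels do not say from how many mice or pools the wells came, so the p-values reflect well-to-well spread alone, and that spread may be technical.

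Integrins are surface receptors made of 1 alpha and 1 beta chain, and the alpha chain largely sets which ligand is bound. Matrix-binding integrins hold fibroblasts, smooth muscle and epithelium to collagen, laminin or proteins with an RGD (arginine, glycine, aspartate) motif such as fibronectin. Leukocyte integrins, most of which share the beta 2 chain, bind partner proteins on other cells, complement fragments or fibrinogen, and in the lung they are carried by macrophages and other immune cells. Immunoglobulin-type adhesion molecules such as ICAM-1 and VCAM-1 are their cellular ligands, and selectins catch passing leukocytes through sugar-bearing partners.

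Values are log2 signals of single arrays, and all differences are purmorphamine minus vehicle on the log2 scale. A gene was called when its adjusted p in limma, over all 22180 genes, was under 0.05. Array medians lay between 6.34 and 6.39, and genes with both group means under 6.34 are called dim. On the second principal component, with 13.2% of the variance, purmorphamine replicate 3 (-9.56) and vehicle replicate 3 (-13.55) were separated from the 4 remaining arrays (3.06 to 6.88). Fibroblast markers were bright, with Fn1 at 13.64 in purmorphamine wells and 13.70 in vehicle wells and Col1a1 at 13.09 and 12.77 in the same order. Macrophage markers were as bright, with Lyz2 at 14.01 and 13.96, Cd68 at 13.34 and 13.21 and Marco at 13.11 and 12.91 for purmorphamine and vehicle. Markers of T cells, B cells and granulocytes were low: 4 of 5 measured T cell, 4 of 4 B cell and 6 of 8 neutrophil genes were dim. The neutrophil gene Csf3r rose by 0.43, a call lost in 5 of 6 fits that left out 1 array (limma adjusted p up to 0.0783). Fibroblast and macrophage markers were thus both present. Fewer cells of a type and less RNA per cell cannot be told apart in whole-well RNA.

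Of the 34 measured adhesion genes, 13 changed: 6 were higher and 7 lower in purmorphamine wells. The 2 deepest falls were those of Itgam, the alpha M chain of the macrophage complement receptor, at 2.75-fold lower, and Itga4, the alpha 4 chain that binds VCAM-1 and fibronectin, at 2.02-fold lower. The highest rises were those of Alcam, an adhesion molecule of the immunoglobulin family, at 1.43-fold, and Itga2, the collagen receptor chain alpha 2, at 1.39-fold. The share of called genes was 38.2%, beside 14.3% of all genes tested and 22% of the 13536 genes that were not dim. The adhesion genes were bright, with a median level of 9.72, against 6.94 for all genes. No comparison with genes of equal level was made. In the up direction 7.18% of all genes were called and in the down direction 7.16%. Sizes were mostly small: Itgam and Itga4 were the only 2 of the 13 that moved by at least 1.5-fold, a rule met by 2.37% of all genes. The 3 purmorphamine values lay wholly above or wholly below the 3 vehicle values in 22 of the 34 genes, against 34.2% of all genes. The median difference of the 34 genes was -0.09, and that of all genes was -0.01. Without both replicate 3 arrays, a setting chosen after seeing the data that leaves 2 wells per group, 3 genes rose and 4 fell. Itgax, Itga5, Itgav, Vcam1, Selp and Cd9 then missed the test (limma adjusted p from 0.056 to 0.106).

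**Figure D1:**
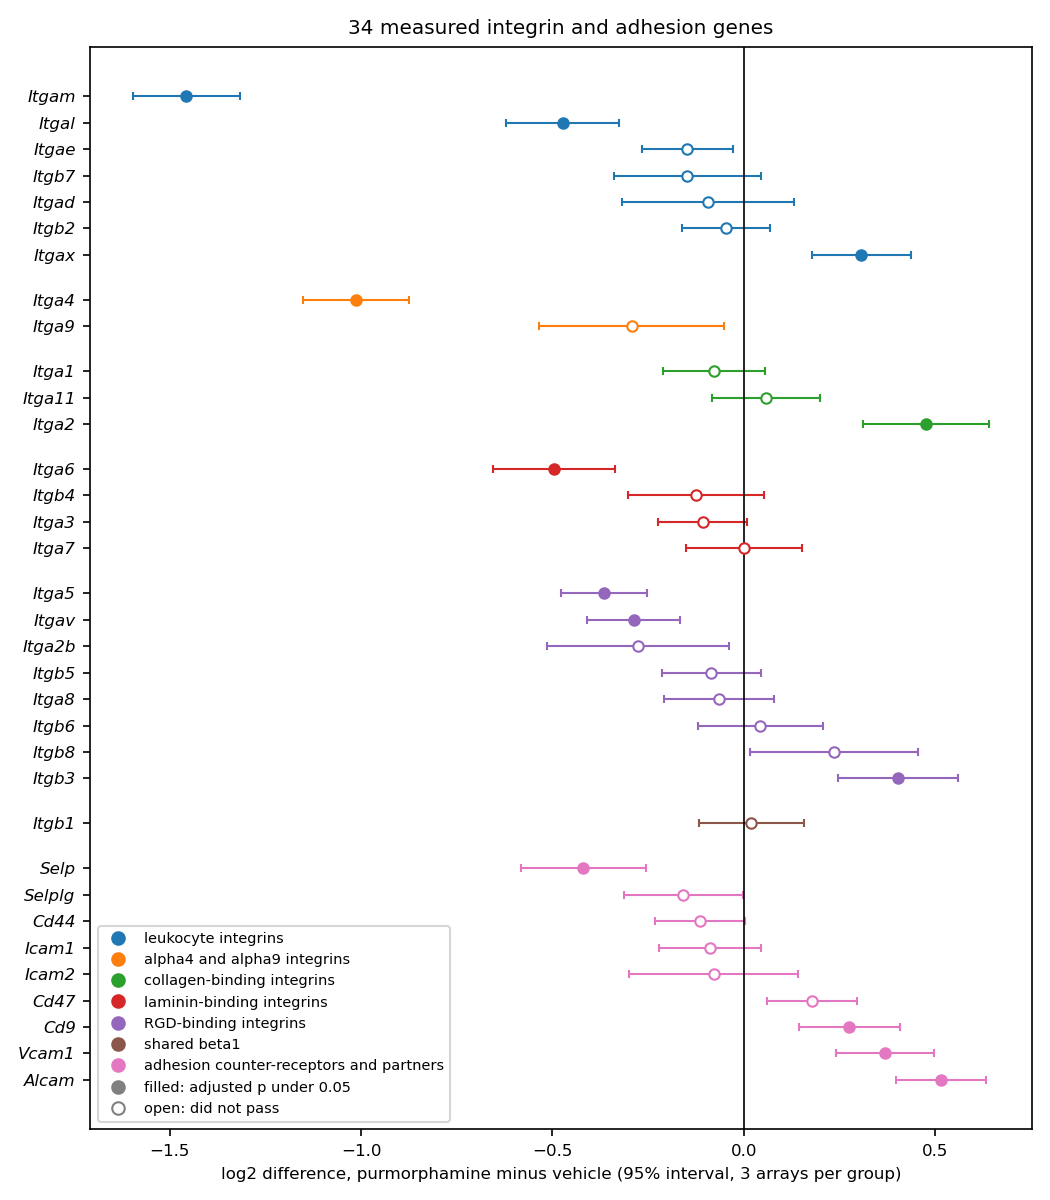
Log2 difference, purmorphamine minus vehicle, of each of the 34 measured genes (point, with its 95% interval from limma, 3 arrays per group), grouped by ligand class. Filled points passed the test. Itgam and Itga4 lie far to the left, while Itgax, Itga2, Itgb3, Cd9, Vcam1 and Alcam lie to the right of 0.

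The leukocyte integrins did not move together. Of the 7 measured, 2 fell (Itgam and Itgal), 1 rose (Itgax) and 4 did not pass the test. The median difference of the 7 was -0.15 (-0.0856 without vehicle replicate 3 and -0.0773 with a linear offset of 50). That median is the difference of Itgb7, a chain little above the array medians that did not pass. Itgam encodes alpha M, also named CD11b, which pairs with beta 2 to form the receptor for the complement fragment iC3b. Its values were 10.29, 10.29 and 10.18 in purmorphamine wells, against 11.73, 11.75 and 11.65 in vehicle wells. The groups lay more than a log2 unit apart, with little spread inside either. The difference was -1.46 (SE 0.06, 95% interval -1.60 to -1.32, limma adjusted p = 4.99e-05, n = 3 per group). In absolute size this difference stood at the 99.9th percentile of all genes.

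Itgax encodes alpha X, or CD11c, carried by dendritic cells and alveolar macrophages, and it too pairs with beta 2. It had 10.96, 11.07 and 10.96 in purmorphamine wells, against 10.66, 10.71 and 10.70 in vehicle wells. All 3 purmorphamine values were the higher ones, opposite to Itgam on the same arrays. The rise was 0.31 (SE 0.06, limma adjusted p = 0.0116). Itgal, the alpha L chain of LFA-1, by which leukocytes hold to ICAM-1, had 9.79, 9.88 and 9.69 in purmorphamine wells, against 10.24, 10.25 and 10.29 in vehicle wells. These groups did not overlap either, and Itgal fell by 0.47 (SE 0.06, limma adjusted p = 0.00351).

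Itgam, Itgax and Itgad follow one another as neighbouring coding genes on mouse chromosome 7. The bases upstream of the RefSeq transcript starts of Itgam and Itgax are shown because these neighbours moved in opposite directions. Each run has 250 bases of build GRCm38.p6, plus strand, 5′ to 3′, at chr7:128062390-128062639 for Itgam and chr7:128129300-128129549 for Itgax. Capitals mark matches, on either strand, to a core motif of the myeloid factor PU.1 (GAGGAA) or to the AP-1 motif (TGANTCA).
Itgam: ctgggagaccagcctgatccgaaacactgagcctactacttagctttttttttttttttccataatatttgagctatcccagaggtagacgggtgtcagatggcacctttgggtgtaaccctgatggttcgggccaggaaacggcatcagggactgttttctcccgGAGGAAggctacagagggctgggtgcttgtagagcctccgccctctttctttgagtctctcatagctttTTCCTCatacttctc
Itgax: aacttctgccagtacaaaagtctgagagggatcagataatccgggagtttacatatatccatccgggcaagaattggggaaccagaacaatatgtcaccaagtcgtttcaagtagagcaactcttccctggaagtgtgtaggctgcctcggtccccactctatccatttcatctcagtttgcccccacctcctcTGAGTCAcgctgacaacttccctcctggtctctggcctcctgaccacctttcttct
The Itgam window held 2 matches to GAGGAA, which was found in 23.3% of all 32851 promoter windows of this length, and none to TGANTCA. The Itgax window held 1 match to TGANTCA, found in 6.75% of all windows, and none to GAGGAA. Neither held the Gli motif GACCACCCA, present in 0.225% of all windows, nor did any other of the 27 windows found for 24 of the 35 genes. Of these 27 windows, 10 held GAGGAA and 2 held TGANTCA, so neither motif was particular to the window shown. These are matches of letters in a short window and do not show binding. The motifs do not overlap each other in the sequences printed.

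The shared chain of these receptors did not follow its partners. Itgb2, which encodes beta 2, was among the brightest genes of the set and had 12.78, 12.76 and 12.79 in purmorphamine wells, against 12.78, 12.84 and 12.85 in vehicle wells. The groups overlapped, and the difference was -0.05 (95% interval -0.16 to 0.07, limma adjusted p = 0.608). Itgad, the alpha D chain, was dim at 5.19 ± 0.19 in purmorphamine wells and 5.28 ± 0.05 in vehicle wells (SD, n = 3 each), so a change of its transcript would be compressed. Itgae, the alpha E chain of lymphocytes that lie within epithelium, was also dim, at 5.71 ± 0.03 in purmorphamine wells and 5.86 ± 0.03 in vehicle wells, and did not pass (limma adjusted p = 0.106). Its partner Itgb7 was little above the array medians, at 6.43 ± 0.06 in purmorphamine wells and 6.58 ± 0.14 in vehicle wells, with overlapping groups (SD, n = 3 each).

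Macrophage markers moved beside these chains in part. Of 14 measured macrophage genes 5 fell and 0 rose: C1qa (-1.35), the growth factor receptor gene Csf1r (-0.63), the mannose receptor gene Mrc1 (-0.62), Adgre1 (-0.37) and Spi1 (-0.29), which encodes PU.1. The 9 others did not pass. Among them were Ptprc (0.07), Lyz2 (0.05) and Tyrobp (-0.02), as well as Marco (0.20), Cd14 (0.19) and Cd68 (0.13). Of the 14 differences, 5 were positive and 9 negative. The called share was 35.7%, beside 14.3% of all genes and 22% of genes that were not dim. The summed macrophage signal was 15.92 to 15.97 on purmorphamine arrays, against 16.02 to 16.04 on vehicle arrays. None of the 14 was dim. Spi1 was not past the test in 5 of 6 fits that left out 1 array (limma adjusted p up to 0.0662). The part of these markers in the integrin differences was not tested.

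**Figure D2:**
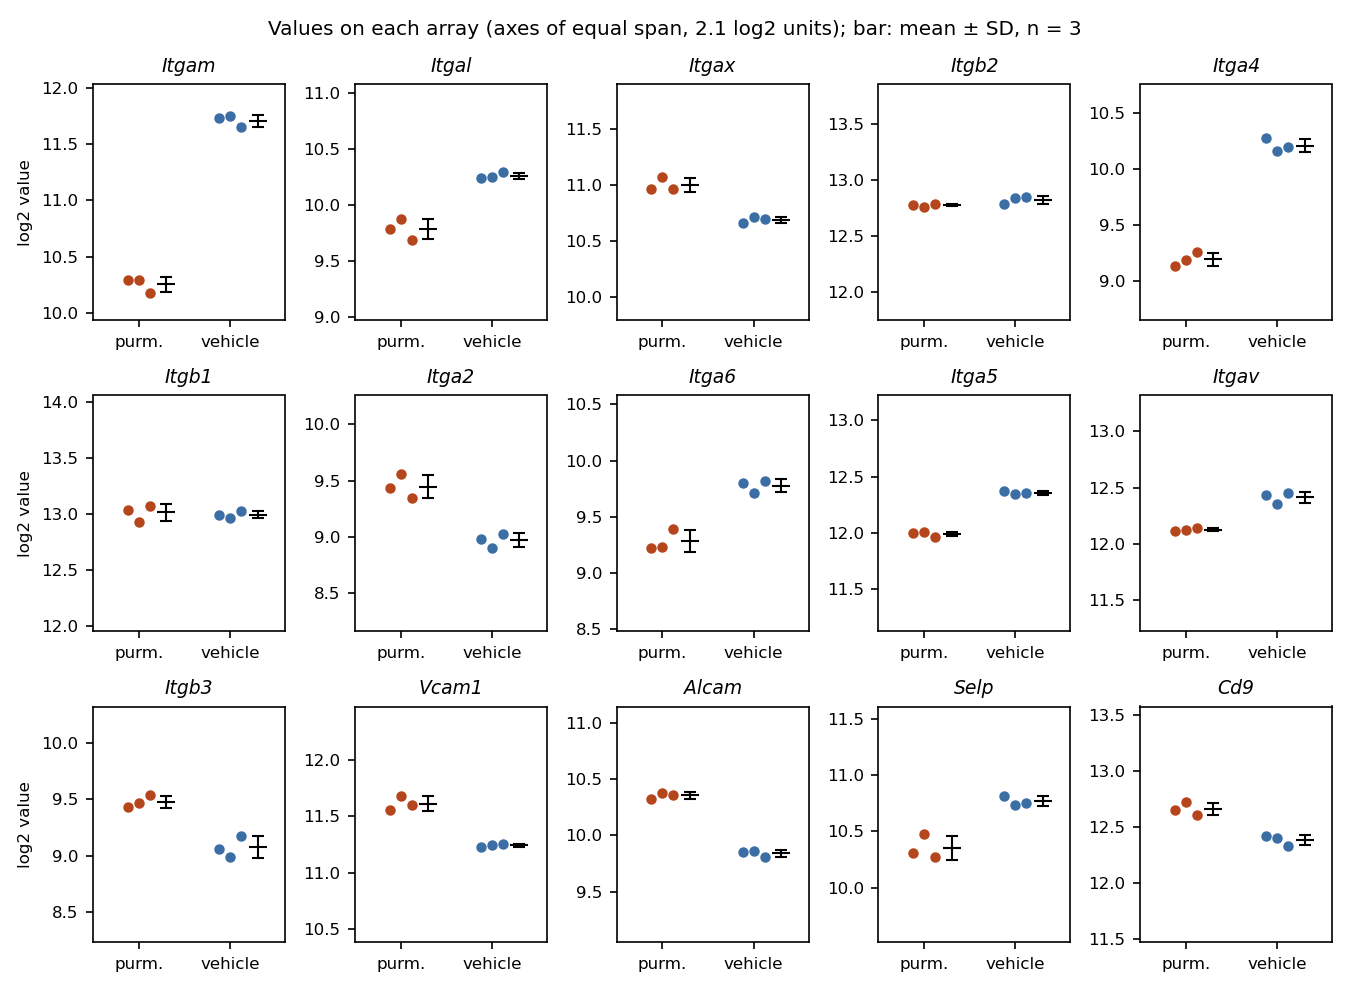
Log2 value on each array (dots, purmorphamine left, vehicle right) with mean and SD (bars, n = 3) for the 13 called genes and for the shared chains Itgb2 and Itgb1; every panel spans the same number of log2 units. The 3 dots of a group lie close together, and the groups are apart in every panel but those of Itgb2 and Itgb1.

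Alpha 4 and alpha 9 stand between both classes, since they bind VCAM-1 as well as matrix proteins. Itga4, which with beta 1 forms the receptor VLA-4, had 9.14, 9.19 and 9.26 in purmorphamine wells, against 10.27, 10.16 and 10.19 in vehicle wells. The gap between the groups was many times the spread within them. Itga4 fell by 1.01 (SE 0.06, 95% interval -1.15 to -0.87, limma adjusted p = 0.000174). Itga9, a receptor chain for tenascin C, had 7.68, 7.83 and 7.93 in purmorphamine wells, against 8.24, 8.16 and 7.92 in vehicle wells. The lowest vehicle value lay within the range of the purmorphamine wells, and the difference of -0.29 did not pass (limma adjusted p = 0.111, and 0.048 without vehicle replicate 3).

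Among the 16 measured matrix-binding chains, 2 rose, 3 fell and 11 did not pass the test. Their median difference was -0.07 (-0.0455 without purmorphamine replicate 3 and -0.0371 without both replicate 3 arrays). Of these chains 31.2% were called, against 42.9% of the leukocyte integrins, 14.3% of all genes and 22% of genes that were not dim. With 7 and 16 genes the shares of both classes were not compared by a test. The differences of the matrix-binding chains ran from -0.50 to 0.48, and those of the leukocyte chains from -1.46 to 0.31.

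Of the collagen receptors, only Itga2 changed. Its values were 9.43, 9.56 and 9.35 in purmorphamine wells, against 8.98, 8.90 and 9.03 in vehicle wells, so the groups were apart. It rose by 0.48 (SE 0.07, limma adjusted p = 0.00524). Itga1, its neighbour on chromosome 13, which also encodes a collagen-binding chain, was at 9.71 ± 0.02 in purmorphamine wells and 9.79 ± 0.07 in vehicle wells (SD, n = 3 each). Itga11, the collagen receptor chain typical of fibroblasts, was at 7.06 ± 0.04 in purmorphamine wells and 7.003 ± 0.08 in vehicle wells. Neither passed the test (limma adjusted p = 0.431 for Itga1 and 0.597 for Itga11).

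Of the laminin receptors, Itga6 was the one to change. The alpha 6 chain pairs with beta 1 or, in the hemidesmosomes of epithelium, with beta 4. Itga6 had 9.22, 9.23 and 9.39 in purmorphamine wells, against 9.80, 9.71 and 9.82 in vehicle wells, without overlap. It fell by 0.50 (SE 0.07, limma adjusted p = 0.00394). Itgb4 was at 8.35 ± 0.07 in purmorphamine wells and 8.47 ± 0.12 in vehicle wells (SD, n = 3 each), with overlapping groups. Itga3, another laminin receptor chain, differed by -0.11, and Itga7, the alpha chain of muscle, by 0.0006, and neither passed.

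RGD-binding chains moved both ways. Itga5, the alpha chain of the fibronectin receptor, had 11.995, 12.01 and 11.97 in purmorphamine wells, against 12.37, 12.34 and 12.35 in vehicle wells. Itgav, the alpha chain shared by the receptors that bind vitronectin and latent TGF-beta, had 12.11, 12.13 and 12.14 in purmorphamine wells, against 12.44, 12.36 and 12.45 in vehicle wells. Both are bright genes whose groups were narrow and did not overlap. Itga5 fell by 0.37 (SE 0.05, limma adjusted p = 0.0033) and Itgav by 0.29 (SE 0.05, limma adjusted p = 0.0115). Another Itgav probe set, far dimmer at 5.28 in purmorphamine wells and 5.47 in vehicle wells, differed by -0.20.

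Itgb3, a beta partner of alpha v and of the platelet chain alpha IIb, went the other way. It had 9.43, 9.47 and 9.54 in purmorphamine wells, against 9.06, 8.99 and 9.18 in vehicle wells. Every purmorphamine value was the higher one, and Itgb3 rose by 0.40 (SE 0.07, limma adjusted p = 0.00836). The other beta partners of alpha v did not pass: Itgb5 differed by -0.09, Itgb6 by 0.04 and the dim Itgb8 by 0.24. Itgb6 is known as an epithelial chain and Itgb8 as a chain that activates latent TGF-beta. Itga8, an alpha chain of lung mesenchyme, differed by -0.07 and overlapped between groups.

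Itga2b, the platelet alpha IIb chain, was close to the array medians at 6.33 ± 0.14 in purmorphamine wells and 6.603 ± 0.15 in vehicle wells (SD, n = 3 each). Its difference of -0.28 did not pass (limma adjusted p = 0.125). Of 4 measured platelet markers, Ppbp and Pf4 fell by 0.97 and 0.66, while Gp9 (0.02) and Gp5 (-0.22) did not pass. So 50% were called, beside 14.3% of all genes and 22% of genes that were not dim. The summed platelet marker signal was 11.88 to 11.96 on purmorphamine arrays, against 12.65 to 12.70 on vehicle arrays. This sum was made up mostly of Pf4 (11.10 in purmorphamine and 11.75 in vehicle wells) and Ppbp (10.52 and 11.49). Gp9 was far lower (7.16 and 7.14), and Gp5 was dim (5.57 and 5.79), so the sum says little about these 2 genes.

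Itgb1, the beta chain shared by most matrix-binding receptors, was the brightest gene of the set. Its values were 13.04, 12.93 and 13.07 in purmorphamine wells, against 12.99, 12.97 and 13.03 in vehicle wells. The groups overlapped, and the difference was 0.02 (95% interval -0.12 to 0.16, limma adjusted p = 0.868).

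Markers of fibroblasts and smooth muscle also moved, while the called share of epithelial markers was that of all genes. Called were 90% of the fibroblast, 60% of the smooth muscle and 14.3% of the epithelial markers. Among all genes 14.3% were called, and among genes that were not dim 22%. Of 10 fibroblast markers 8 rose and 1, Thy1, fell, with a summed signal of 15.06 to 15.13 on purmorphamine arrays, against 14.84 to 14.89 on vehicle arrays. Pdgfra rose by 0.83, Dcn by 0.46 and Pdgfrb by 0.38. Of 5 smooth muscle markers 3 fell, Myh11 by 0.47, Cnn1 by 0.24 and Acta2 by 0.19. Tagln (-0.16) and Des (0.14) did not pass, and Des went the other way. The summed signal of the 5 was 14.83 to 14.87 on purmorphamine arrays, against 15.06 on the vehicle arrays. Of 7 epithelial markers 1 changed, Epcam, which rose by 0.50, and the summed signal was 12.07 to 12.08 on purmorphamine arrays, against 12.04 to 12.08 on vehicle arrays. The calls of Acta2 and of Lum, another fibroblast marker, were lost whichever array was left out (limma adjusted p from 0.0501 to 0.0992), and that of Cnn1 in 5 of 6 cases. The part of these markers in the differences of the matrix-binding chains was not tested.

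**Figure D3:**
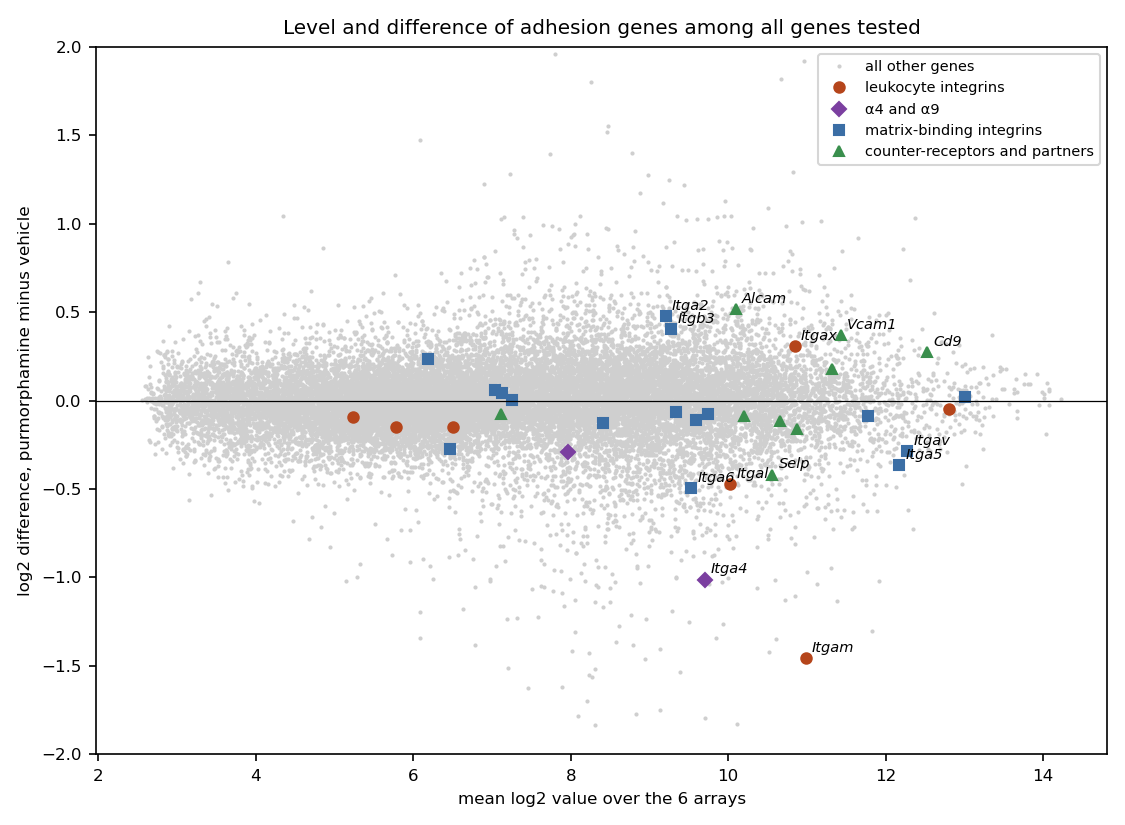
Mean log2 value over the 6 arrays (horizontal) against the log2 difference, purmorphamine minus vehicle (vertical), with all other genes in grey and the 34 adhesion genes in colour by class; 11 genes lie beyond the vertical axis. Itgam and Itga4 lie below most grey points, at the 99.9th and 99.5th percentile of absolute difference among all genes. The called adhesion genes are all of medium or high signal.

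Counter-receptors and other adhesion partners, Cd9, Cd44 and Cd47 included, changed in 4 of 9 cases: 3 rose and 1 fell. That share of 44.4% stands beside 14.3% of all genes and 22% of genes that were not dim. Vcam1, the endothelial and stromal ligand of alpha 4 integrins, had 11.56, 11.68 and 11.60 in purmorphamine wells, against 11.23, 11.24 and 11.26 in vehicle wells. It rose by 0.37 (SE 0.05, limma adjusted p = 0.0053), opposite in sign to its receptor chain Itga4. Alcam, which binds itself and the lymphocyte receptor CD6, had 10.33, 10.38 and 10.36 in purmorphamine wells, against 9.85, 9.86 and 9.81 in vehicle wells. The groups were narrow and far apart for a rise of 0.52 (SE 0.05, limma adjusted p = 0.00103). Cd6 itself was near the array medians, at 6.48 in purmorphamine wells and 6.66 in vehicle wells, and did not pass.

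Icam1, the ligand of LFA-1 and of the alpha M receptor, was at 10.15 ± 0.03 in purmorphamine wells and 10.24 ± 0.07 in vehicle wells (SD, n = 3 each). Icam2, an ICAM of endothelium and platelets, was at 7.07 ± 0.17 in purmorphamine wells and 7.15 ± 0.08 in vehicle wells. Neither passed the test, at differences of -0.09 and -0.08. Of 7 endothelial markers, Cdh5 (0.34) and Tie1 (0.36) rose, or 28.6%, beside 14.3% of all genes and 22% of genes that were not dim. The 5 others did not pass, among them Emcn (-0.06), about as bright as Cdh5, Kdr (0.06) and the dim Cldn5 (0.02). Of the 7 differences, 6 were positive and 1, that of Emcn, was negative. The summed endothelial signal was 11.94 to 12.01 on purmorphamine arrays, against 11.77 to 11.89 on vehicle arrays. Without 1 array, Cdh5 missed the test in 2 of 6 cases and Tie1 in 4. The part of endothelial cells in the Vcam1 difference was not tested.

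Selp, the P-selectin gene, stored in platelets and endothelium, had 10.31, 10.48 and 10.27 in purmorphamine wells, against 10.82, 10.74 and 10.76 in vehicle wells. The groups did not overlap, and Selp fell by 0.42 (SE 0.07, limma adjusted p = 0.00824). Of the 4 measured platelet markers, Ppbp (-0.97) and Pf4 (-0.66) fell beside it, while Gp9 (0.02) and the dim Gp5 (-0.22) did not pass. Among the 7 endothelial markers 2 rose and 0 fell. Selplg, the leukocyte partner of P-selectin, had 10.75, 10.91 and 10.72 in purmorphamine wells, against 10.998, 10.93 and 10.93 in vehicle wells. All purmorphamine values were lower here too, by 0.16 on average, but the difference did not pass (limma adjusted p = 0.171). The dimmer Selplg probe set differed by -0.19. The part of platelet and endothelial markers in the Selp difference was not tested.

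The remaining surface proteins differed little. Cd9, a tetraspanin that associates with integrins, had 12.65, 12.72 and 12.61 in purmorphamine wells, against 12.42, 12.40 and 12.33 in vehicle wells. It rose by 0.28 (SE 0.06, limma adjusted p = 0.0188), but its dimmer probe set, with 6.85 in purmorphamine wells and 6.80 in vehicle wells, differed by 0.05, and the mean of both did not pass (adjusted p = 0.148). The call was also lost without purmorphamine replicate 1, purmorphamine replicate 2, vehicle replicate 2 or vehicle replicate 3, with limma adjusted p from 0.0544 to 0.0643. Cd47, the signal that holds back phagocytosis through SIRP-alpha, had 11.40, 11.45 and 11.39 in purmorphamine wells, against 11.26, 11.21 and 11.23 in vehicle wells. Its groups were apart, yet the difference of 0.18 missed the threshold (limma adjusted p = 0.0569). Cd44, the hyaluronan receptor, differed by -0.11 and did not pass (limma adjusted p = 0.187).

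The within-array gap between partner genes describes how chains of 1 receptor, or a receptor and its ligand, shifted against each other. The 15 pairs were chosen after their unlike differences were seen, so their shifts are a description, without a test. Relative to Itgb2, Itgam shifted by -1.41 and Itgal by -0.43, while Itgax shifted by 0.35. Itgax shifted by 1.76 relative to Itgam. Against Itgb1, the shifts were -1.03 for Itga4, -0.515 for Itga6, -0.39 for Itga5 and 0.46 for Itga2. The alpha v chain shifted by -0.69 relative to Itgb3 and by -0.20 relative to Itgb5. In each of these the alpha chain passed the test of its own, while Itgb1, Itgb2 and Itgb5 did not. Between receptor and ligand, Itga4 shifted by -1.38 relative to Vcam1, Itgal by -0.39 relative to Icam1 and Selp by -0.26 relative to Selplg.

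Inside the cell, adhesion complex proteins tie integrins to actin and switch them on. Of 28 measured genes of integrin activation and adhesion complexes 10 fell, 1 rose and 17 did not pass the test. This is 39.3% called with a median difference of -0.14, beside 14.3% and -0.01 over all genes and 22% of the genes that were not dim. The deepest falls were those of Fyb, an adaptor of integrin activation in blood cells (-1.28, limma adjusted p = 5.7e-05), and Dab2, an endocytic adaptor of integrins (-0.95). Fermt3, the kindlin of blood cells that activates beta 2 integrins, fell by 0.50, and vinculin, Vcl, by 0.42. Talin 1 (Tln1), which binds beta tails, fell by 0.41 as well. The 1 rise was that of the kinase gene Syk (0.24), which was lost whichever array was left out (limma adjusted p from 0.0721 to 0.124), as was the fall of Fermt2 (0.0545 to 0.089). Pxn and Parvb missed the test in 5 and 4 of these 6 cases.

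Of 27 measured matrix ligands 4 rose and 1 fell, which is 18.5% called, near the 14.3% of all genes and below the 22% of genes that were not dim. The collagens Col1a2 (0.48), Col3a1 (0.47), Col6a1 (0.37) and Col1a1 (0.31) rose, and Ccn1, a matricellular ligand of integrins, fell by 0.37. Fibronectin (Fn1), tenascin C (Tnc) and thrombospondin 1 (Thbs1) were among the brightest ligands and differed by -0.06, -0.02 and -0.03. With 1 array left out, Col1a1 missed the test in 4 of 6 cases and Col6a1 in 2, at limma adjusted p up to 0.0681.

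Other leukocyte adhesion genes changed in 4 of 21 cases, or 19%, also near the share of all genes (14.3%) and below that of genes that were not dim (22%). Fut7, the fucosyltransferase that builds selectin ligands, fell by 0.79 (limma adjusted p = 0.00196), and Gcnt1, another enzyme of that sugar pathway, fell by 0.35. The junctional adhesion gene Jam2 rose by 0.42 and Pecam1 by 0.30. Of 10 tetraspanin genes, Cd37 (0.51) and Cd82 (0.25) rose and Tspan2 (-0.53) and Tspan32 (-0.51) fell, so 40% were called, against the same 14.3% and 22%. Cd82 and Tspan32 missed the test in 4 and 5 of 6 cases with 1 array left out. Sirpa, the receptor of CD47, differed by 0.03.

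**Figure D4:**
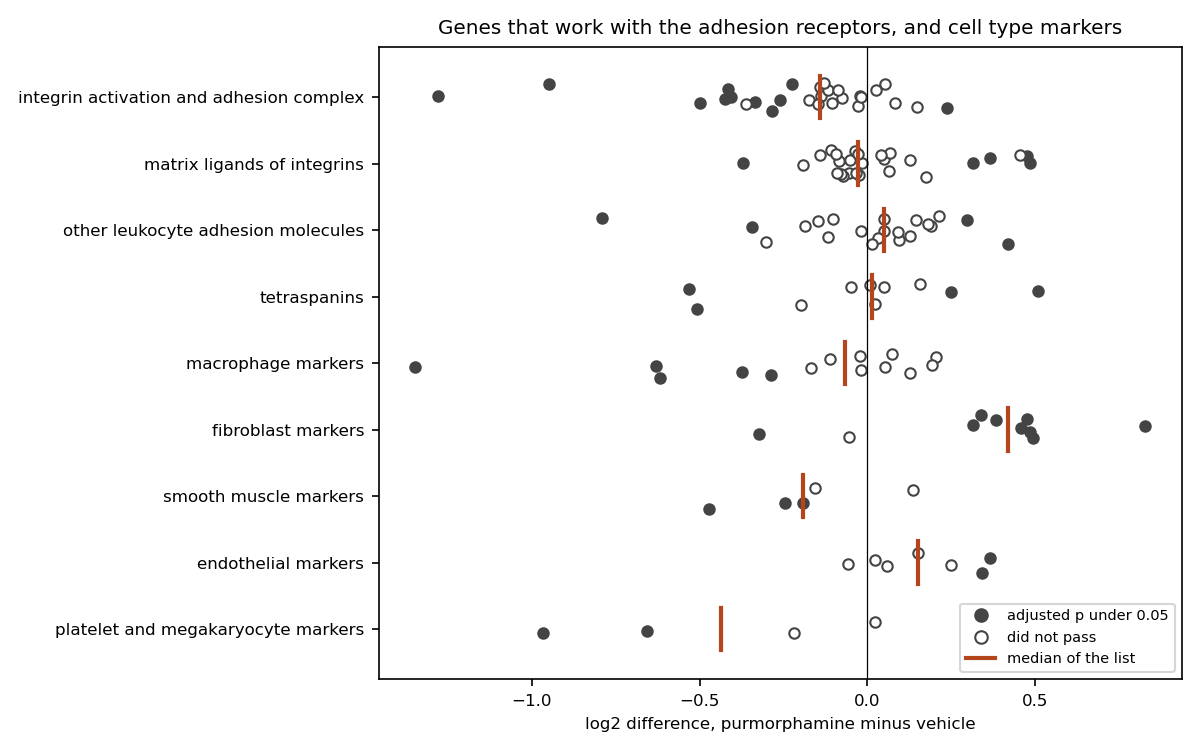
Log2 difference, purmorphamine minus vehicle, of each measured gene of 4 lists of adhesion partners and 5 lists of cell type markers (filled: passed the test; open: did not), with the median of each list as a bar. Points of the adhesion complex list lie mostly left of 0, those of the fibroblast list mostly right of it.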

How the data were processed

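RNA of 3 purmorphamine and 3 vehicle wells was hybridised to 1 array each. The authors deposited log2 values, 1 per probe set and array. The submitters' processing notes list oligo, RMA and limma without versions. RMA makes the arrays' distributions alike, which hides any shift shared by the whole transcriptome, and changes of dim genes are compressed. Precision is limited by the number of arrays (median SE 0.07). Each of the 6 value columns carried the identifier of 1 sample.

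Of 41345 probe sets, 23521 had 1 gene symbol in the platform annotation supplied, and 22180 genes remained with 1 probe set each. They were fitted together, without a filter, with lmFit and eBayes of limma 3.58.1 (R 4.3.3); tests were two-sided, and p-values were adjusted across the 22180 genes by the Benjamini-Hochberg method. Summed marker signals are log2 of the sum of linear signals. The steps were tested on simulated data. Promoter sequences are from RefSeq (GRCm38.p6). The members and lists were chosen with earlier results of these data known. The text gives called members on each array, up to 4 called genes of each partner list and the brightest fibroblast and macrophage markers. Tln1, Syk, Fermt2, Pxn, Parvb, Fn1, Tnc, Thbs1, Cd6, Sirpa and Col1a1 were named after their values were seen. So were all other markers that changed or stayed, which were not picked by brightness. The alternatives were median centring, quantile normalization, removal of the dimmest genes, an added linear offset (50), averaged probe sets, trend and robust eBayes, replicate number as a block, omission of each array in turn, other thresholds, other classes for Itga4 and Itga9 and, chosen after seeing the data, leaving out both replicate 3 arrays. Sequences were read with Python 3.11.15 and plots drawn with matplotlib 3.10.9.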

Additional observations from a re-analysis of the deposited data

How the results depend on the processing

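No adhesion gene that changed was turned in direction by any alternative, and 7 of the 13 calls (Itgam, Itga4, Itgal, Itga2, Itga6, Itgb3 and Alcam) were kept under all 14 settings other than a changed threshold. Without both replicate 3 arrays, so with fewer samples, 440 of all genes were raised and 511 lowered, and adhesion genes counted 3 raised and 4 lowered, leukocyte integrins 0 raised and matrix-binding chains 1 lowered, with a matrix-binding median of -0.0371. Itgax (adjusted p = 0.0854), Itga5 (0.056), Itgav (0.106), Vcam1 (0.066), Selp (0.0832) and Cd9 (0.102) then missed the test. At a fold of at least 1.5, 214 genes were raised and 311 lowered, with 0 raised and 2 lowered adhesion genes, 0 and 1 leukocyte integrins and 0 and 0 matrix-binding chains. With trend and robust eBayes 2416 genes were raised. With 1 array left out, 897 to 1168 genes were raised and 1057 to 1206 lowered, and the class medians ran from -0.165 to -0.0856 for leukocyte (the last without vehicle replicate 3) and from -0.0868 to -0.0455 (without purmorphamine replicate 3) for matrix-binding chains. A linear offset of 50 gave a leukocyte median of -0.0773, against -0.147. The replicate numbers did not clearly pair the wells: deviations of same-numbered wells correlated across genes at 0.106, 0.0235 and 0.103. Each well correlated best with its own number, a hint from the data only. With the replicate number as a block, 1193 of all genes were raised and 1239 lowered, 6 adhesion genes were raised and 8 lowered, and Itga2b passed (adjusted p = 0.0368). Of the 21 genes not called, 5 passed under at least 1 alternative: Itga2b, Itga9, Selplg, Cd44 and Cd47. The cause of these changes was not tested. Low signal limits what can be said of Itgad, Itgae and Itgb8, which were dim, and of Itgb7 and Itga2b, which lay little above the array medians.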
